A study of Gasterosteus aculeatus with 18 samples.

Results

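The comparison of embryos kept at a low cortisol dose with untreated embryos is described here, for 12 of the 18 egg pools of a threespine stickleback (Gasterosteus aculeatus) experiment. The labels call the groups control, low and high, and the design text gives cortisol at 0, 5 and 10 µg/L, read here in that order. Low and control held 6 pools each. The remaining 6 pools, of the high dose, enter the limma fits and are otherwise shown only where they place a low or control pool. Every pool consisted of 10 eggs of a wild type clutch taken 72 hours after fertilization, and total RNA of the pool was extracted for sequencing. The labels number the pools 1 to 6 in each group, but do not say whether a number marks a shared clutch or whether the pools of a group came from separate mothers. P-values therefore measure only the spread between these pools. The members of the comparison were taken from the group labels, and differences were formed between the low and the control pool of the same number. The pair with number 5 ran against the other pairs in much of what follows, and the comparisons over the pairs are given with and without it. The files hold nothing by which the group labels of its pools could be checked, and every direction given for number 5 rests on those labels.

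Cortisol is the main glucocorticoid of fishes. A female passes it into her eggs, where it can bind glucocorticoid and mineralocorticoid receptors, which act as transcription factors, and transporters of the ABC family can pump steroids out of cells. The low dose stood for the level that eggs receive when a mother meets predators. In pooled eggs, a change in the number of cells of a type and a change in RNA per cell cannot be told apart.

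The deposited table gives normalised read counts for 17253 genes, of which 16103 had a mean of at least 11.4 over the 18 pools and were tested (the nearest means inside and outside were 11.44 and 11.39). Genes are listed by Ensembl identifier without names. None of the identifiers was found in the reference gene table (0 of 17253), so no gene can be given a role, lists of genes such as the ABC transporters could not be followed, and the label of the tissue could not be checked against marker genes. Differences below are in log2(value + 1), low minus control, unless stated otherwise. The deposited column totals ran from 8.36 to 15.2 M (M = 1000000). They are not read depth. Depth estimated from the rounding of the values was 9.66 to 12.4 M reads per pool, and low minus control was 1.06 ± 0.636 M reads (SD, n = 6), from 0.034 M in number 1, too little to be read as a difference in an estimate of this kind, to 1.87 M in number 6.

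The low dose moved no gene past the test. In limma over all 18 pools, 0 of 16103 genes were called at an adjusted p under 0.05 (0% of genes tested), with 78 genes at an unadjusted p under 0.05. With the replicate number as a block the count was again 0 (0%), with 1782 genes at an unadjusted p under 0.05, of which 750 were higher and 1032 lower in low pools. As a share of the 16103 genes, the 78 lay far below 0.05 and the 1782 above it. The genes are not independent, so neither share is a test. The smallest adjusted p from limma was 0.99995 without the block and 0.0573 with it. The median SE of a gene was 0.26 without the block and 0.11 with it. Most genes differed by less than the former, so 0 calls without the block does not show that no gene changed. With the block it was 0.164 when limma was fitted to the low and control pools only, and 0.213 in limma without the variance trend.

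The differences themselves were small. Averaged over the 6 numbers, the middle 50% of genes lay between -0.098 and 0.11, and 90% lay between -0.29 and 0.32. A difference of more than 0.5 was seen in 213 genes upward and 143 downward, and one of more than 1 in 10 upward and 5 downward. Within single pairs the differences were wider. The SD over genes was 0.36, 0.44, 0.42, 0.32, 0.40 and 0.35 in numbers 1 to 6, and the median gene differed 1.13-, 1.19-, 1.18-, 1.13-, 1.16- and 1.12-fold in either direction. Number 2 had the widest spread by both measures, number 4 the narrowest by the SD and number 6 by the median, and number 5 lay between them. In number 5, 206 genes were more than 1 higher in the low pool and 188 more than 1 lower. The size of its differences thus did not set number 5 apart.

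Neither direction prevailed over the genes as a whole in the values as deposited. The median difference over all genes was 0 in numbers 1, 2, 4 and 5, -0.0040 in number 3 and 0.0044 in number 6, with a mean of 0.000065 ± 0.0027 (SD, n = 6, two-sided exact sign-flip test, p = 1). In number 5, 49.0% of genes were higher and 48.9% lower in the low pool. The scaling by which the values were deposited places the middle of the columns at a similar level, so this median cannot show a change in total RNA. With the columns set to the same total, the mean of the 6 medians was 0.065 (exact sign-flip test, p = 0.344).

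In 5 of 6 pairs the direction differed between rare and abundant transcripts, although this did not pass the test over the 6 pairs and was nearly absent under quantile normalization, which makes the distributions of the columns equal. Genes were put in 5 classes by their mean log2 value over the 18 pools. Among the 2313 genes with a mean under 5, the median difference was 0.11, 0.096, 0.061, 0.043, 0 and 0.14 in numbers 1 to 6. The low pool was the higher one in 5 pairs, and number 5 stood at 0. Among the 4600 genes from 5 to 7, the medians of numbers 1, 2, 3, 4 and 6 were between 0.028 and 0.054, and that of number 5 was again 0. The 5721 genes from 7 to 9 showed little shift, with medians from -0.019 in number 5 to 0.019 in number 4.

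Abundant transcripts lay on the other side. Among the 2758 genes from 9 to 11 the median was -0.015, -0.039, -0.056, -0.028, 0.0090 and -0.032 in numbers 1 to 6. Among the 711 genes at 11 and over it was -0.049, -0.18, -0.22, -0.082, 0.16 and -0.084. In linear terms the median gene of this top class changed by -3.37%, -12.03%, -14.1%, -5.54%, 11.4% and -5.68% from the control to the low pool of numbers 1 to 6. Between 60.3% and 77.5% of the top class was lower in the low pool of numbers 1, 2, 3, 4 and 6, whereas 73.8% was higher in the low pool of number 5.

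**Figure D1:**
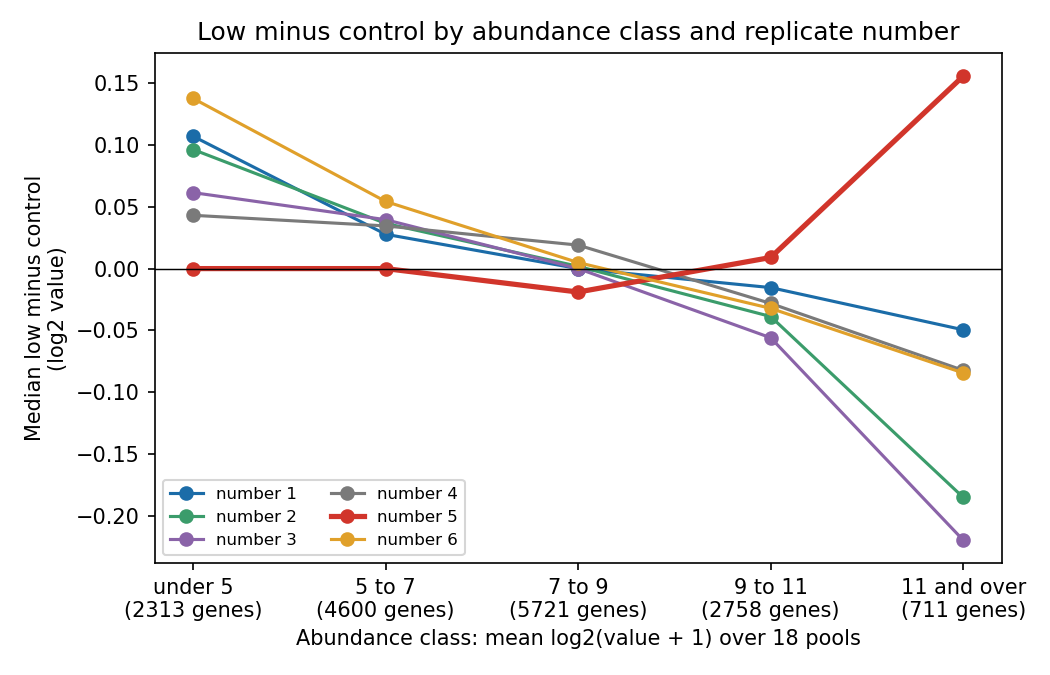
Median difference between the low and the control pool (log2 value, vertical axis) for 5 classes of genes by abundance (horizontal axis), with 1 line for each replicate number and number 5 drawn thick. Numbers 1, 2, 3, 4 and 6 slope downward, from medians of 0.043 to 0.14 in the lowest class to -0.22 to -0.049 in the highest, while number 5 ends at 0.16. With the columns set to the same total the class from 9 to 11 has a mean above 0 (0.039), and under quantile normalization both upper classes do (0.0085 and 0.0056).

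The shift along abundance did not pass the test over all 6 pairs. The top class minus the bottom class was -0.16, -0.28, -0.28, -0.13, 0.16 and -0.22 in numbers 1 to 6, below 0 in 5 of 6 pairs. Its mean was -0.15 ± 0.16 (SD, n = 6, two-sided exact sign-flip test, p = 0.0938, or 0.206 after adjustment over the 11 single-value tests). The class means were 0.074 ± 0.049 under 5, 0.032 ± 0.018 from 5 to 7, 0.0011 ± 0.012 from 7 to 9, -0.027 ± 0.022 from 9 to 11 and -0.077 ± 0.13 at 11 and over. The exact p for these classes was 0.0625, 0.0625, 0.625, 0.0625 and 0.219, and the adjusted p was 0.172, 0.172, 0.688, 0.172 and 0.344. The smallest p that 6 pairs can give is 0.031, so 1 class alone could not pass after adjustment over the 11 tests. In the classes under 5 and from 5 to 7 number 5 stood at 0, so their p could not fall below 0.0625. Without number 5, a choice made with its behaviour known, the class means were 0.089 ± 0.037 under 5, 0.039 ± 0.0098 from 5 to 7, 0.0051 ± 0.0080 from 7 to 9, -0.034 ± 0.015 from 9 to 11 and -0.12 ± 0.074 at 11 and over (SD, n = 5), and the top minus the bottom class was -0.21 ± 0.071 (SD, n = 5), below 0 in 5 of 5 pairs. The exact sign-flip p was then 0.25 for the class from 7 to 9 and 0.0625 for the other classes and for the top minus the bottom class. The smallest p that 5 pairs can give is 0.0625. The scaling moved the classes, over all 6 pairs. With all columns set to the same total, their means in rising order of abundance were 0.14, 0.097, 0.067, 0.039 and -0.011, and the top minus the bottom class was -0.15. Under quantile normalization they were 0.0083, 0.0042, 0.0059, 0.0085 and 0.0056, and the top minus the bottom class was -0.0027.

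The most abundant transcripts also took a smaller part of the library in 5 of 6 low pools. The 100 most abundant genes, like the 10 and 1000 below, were ranked anew in each pool, so they need not be the same genes. They held 22.8%, 31.97%, 35.8%, 34.9%, 35.6% and 24.6% of the column total in control pools 1 to 6. In low pools 1 to 6 they held 21.5%, 28.5%, 31.4%, 34.2%, 39.7% and 23.2%. The share differed more between numbers than between the groups, with numbers 1 and 6 low in both. Low minus control was -1.21 ± 2.95 percentage points (SD, n = 6, exact sign-flip test, p = 0.312, adjusted 0.430), and -2.27 ± 1.61 (SD, n = 5) without number 5, where it was 4.05 points upward. Without number 3 or number 2 it was -0.568 or -0.762 points. The 1000 most abundant genes followed the same order, at 4.11 points in number 5 and from -4.18 to -1.30 points in the other numbers. The 10 most abundant genes did not, with 0.101 points in number 5, 0.0946 in number 4 and -1.65 to -0.606 in numbers 1, 2, 3 and 6.

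**Figure D2:**
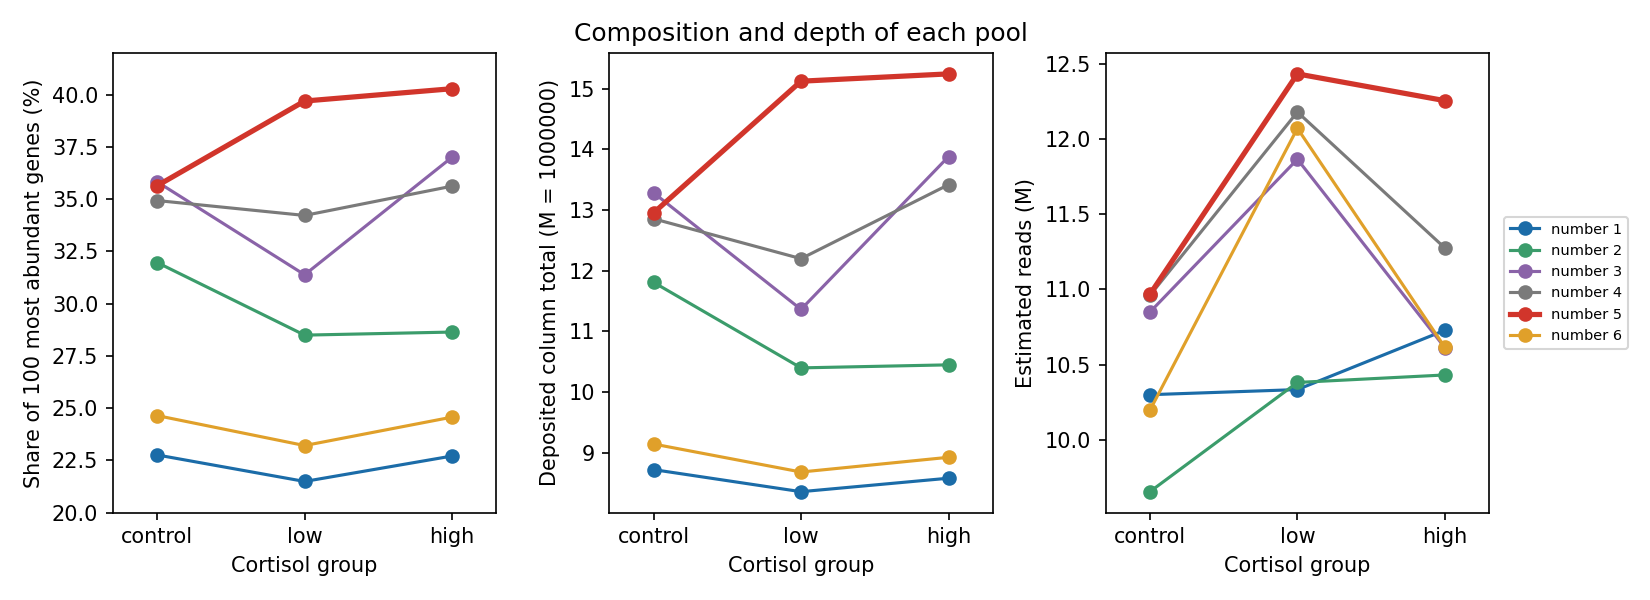
Share of the column total held by the 100 most abundant genes of each pool (left, percent), deposited column total (middle, M) and estimated reads (right, M). Lines join pools of the same number, and number 5 is drawn thick. The vertical axes do not start at 0. From control to low, number 5 rises in all 3 panels, whereas the other numbers fall in the left and middle panels and rise in the right panel, number 1 by 0.034 M.

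The column totals moved with this share. Control pools 1 to 6 had totals of 8.72, 11.8, 13.3, 12.9, 13.0 and 9.14 M, and low pools 1 to 6 had 8.36, 10.4, 11.4, 12.2, 15.1 and 8.68 M. The total was lower in the low pool of every number but 5 (mean difference -0.441 ± 1.42 M, SD, n = 6, exact sign-flip test, p = 0.438, adjusted 0.535). The mean was -0.964 ± 0.676 M (SD, n = 5) without number 5, -0.145 M without number 3 and -0.247 M without number 2. The estimated reads were 10.3, 9.66, 10.8, 10.96, 10.97 and 10.2 M in control pools and 10.3, 10.4, 11.9, 12.2, 12.4 and 12.1 M in low pools. Estimated depth was therefore higher in the low pool of number 5, as in numbers 2, 3, 4 and 6, while in number 1 the estimates differed by 0.034 M. Over the 6 pairs the exact sign-flip test gave p = 0.031 (adjusted 0.172), and without number 1 or number 5 the mean was 1.26 or 0.974 M (p = 0.0625 each). The p of 0.031 is reached only when all 6 pairs share a sign, and the sign of number 1 cannot be read from 0.034 M. The factor behind the estimate was not clear for low pool 2 and only narrowly clear for low pool 4. The 0.726 M of number 2 and the 1.22 M of number 4 are therefore less certain than the other differences. The part of depth in the shift along abundance was not tested.

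Genes at the bottom of the range were fewer in most low pools. A value of 5 or less was held by 530, 493, 738, 418, 489 and 522 of the 17253 genes in control pools 1 to 6. In low pools 1 to 6 it was 421, 394, 597, 428, 550 and 358 genes. Low pools 1, 2, 3 and 6 had 99 to 164 such genes fewer than their controls, while low pool 4 had 10 more and low pool 5 had 61 more. The difference of -73.7 ± 89.1 genes (SD, n = 6) did not pass the exact sign-flip test (p = 0.125, adjusted 0.229). Without number 5 it was -100.6 ± 67.0 genes (SD, n = 5).

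Gene by gene, number 5 ran against the other numbers. The pair differences of different numbers share no pool. Their correlation across the 16103 genes, which are not independent replicates, was positive for all 10 combinations of numbers 1, 2, 3, 4 and 6, from 0.039 for 1 with 4 to 0.55 for 1 with 6. All 5 combinations with number 5 were negative, at -0.037, -0.15, -0.17, -0.18 and -0.028 with numbers 1, 2, 3, 4 and 6. All columns share the authors' scaling.

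**Figure D3:**
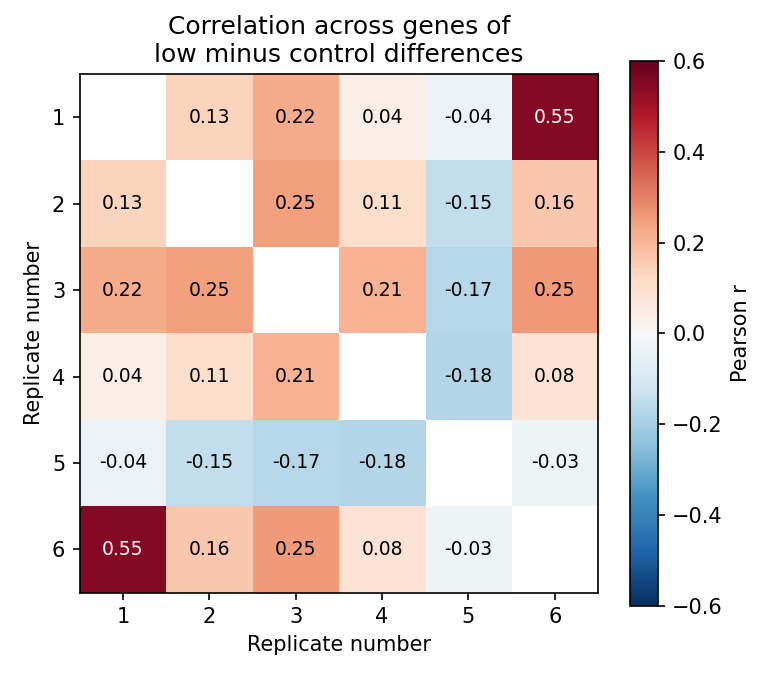
Pearson correlation across 16103 genes between the low minus control differences of each combination of replicate numbers (both axes), with r printed in each cell. The row of number 5 holds negative values from -0.18 to -0.028, and the other cells are positive, the highest being 0.55 for numbers 1 and 6.

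Set against the mean difference of the other 5 numbers, r was 0.36, 0.19, 0.29, 0.10, -0.19 and 0.42 for numbers 1 to 6. Number 4 was thus also weakly related to the rest. The opposition of number 5 was found in every abundance class, with r of -0.064 under 5, -0.15 from 5 to 7, -0.32 from 7 to 9, -0.41 from 9 to 11 and -0.30 at 11 and over. Under quantile normalization, which gives every column the same distribution, r for number 5 was -0.16. In the same 3 upper classes number 6 had r of 0.50, 0.65 and 0.75.

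Counts of direction gave the same picture. All 6 pairs were higher in the low pool for 404 genes (2.51% of genes tested) and lower for 346 genes (2.15%). The 404 genes had a median value of 120, a median difference of 0.29 and 2 members in the top class, and the 346 genes had a median value of 270, a median difference of -0.26 and 18 members in the top class. Among all 16103 genes tested, 711 were in the top class, a share close to that of the 346 genes and above that of the 404. In high pools, which are compared with the same control pools, the median difference from control was 0.038 for the 404 genes and -0.052 for the 346 genes.

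A larger set moved together in numbers 1, 2, 3, 4 and 6 with number 5 opposed. For 1042 genes (6.47%) those 5 numbers were higher and number 5 lower, and for 1070 genes (6.64%) those 5 were lower and number 5 higher. Number 4 was the opposed number for 356 (2.21%) and 391 (2.43%) genes in the same order. Number 1 was opposed for 171 (1.06%) and 140 (0.869%) genes, and number 2 for 227 (1.41%) and 172 (1.07%). Number 3 was opposed for 140 (0.869%) and 123 (0.764%) genes, and number 6 for 110 (0.683%) and 84 (0.522%). Of the 2916 genes (18.1%) on which the other 5 numbers agreed, number 5 was opposed in 72.4%. The corresponding share was 28.7% for number 1, 34.2% for number 2, 25.6% for number 3, 49.1% for number 4 and 20.1% for number 6.

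In these genes the choice itself sets the sign of number 5 and moves its median away from 0. In the 1042 genes the median was 0.25 over the 5 numbers and -0.27 in number 5. In the 1070 genes it was -0.28 over the 5 numbers and 0.24 in number 5. The latter were abundant, with a median value of 553 and 208 members in the top class, against 241 and 21 members for the 1042 genes. The top class held 711 of all 16103 genes tested.

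**Figure D4:**
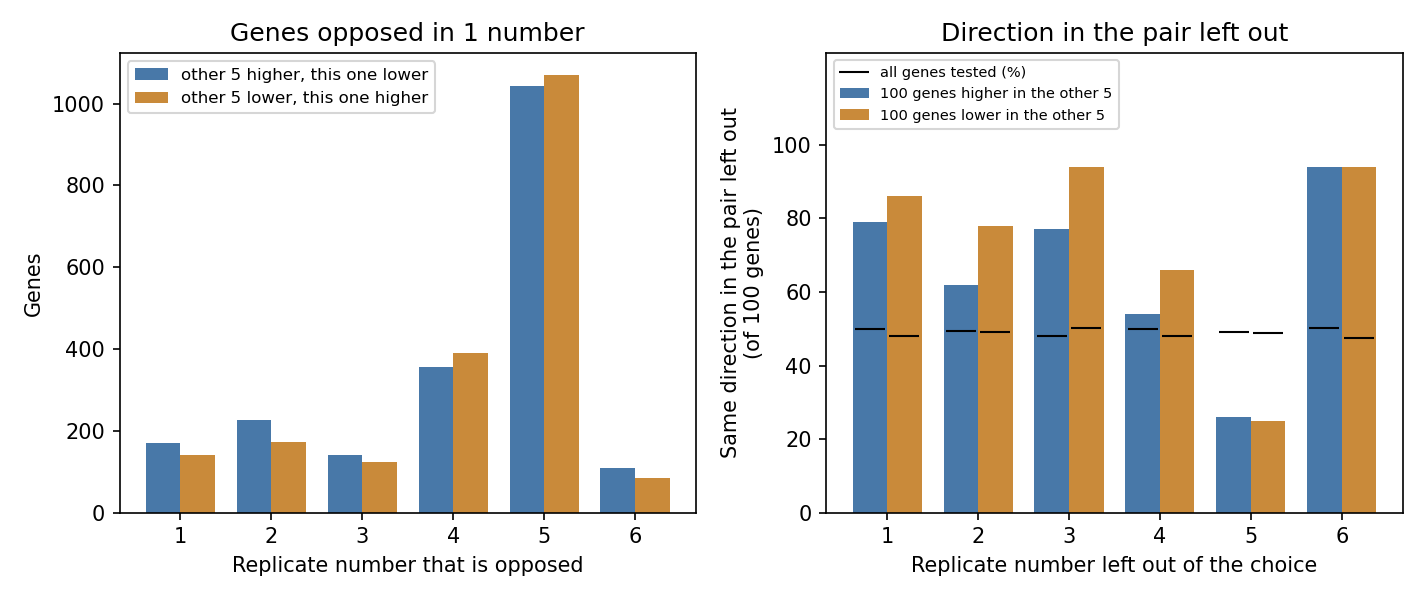
Left, number of genes for which the other 5 replicate numbers share a direction and the number on the horizontal axis is opposed. Number 5 stands at 1042 and 1070 genes and the next, number 4, at 356 and 391. Right, of the 100 higher and 100 lower genes with the smallest p in the fit without a number, how many had that direction in the pair left out, with short black lines for the share of all genes; number 5 gives 26 and 25, below the lines, and the other numbers 54 to 94, above them.

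Genes were also read in a pair that had no part in their choice. For each number the blocked limma fit was made without its 3 pools, and the 100 genes with the smallest p in each direction were read in the low and control pool left out. Of the 100 higher genes, 79, 62, 77, 54, 26 and 94 were also higher in the low pool of numbers 1 to 6 when that number was left out, while 48.1% to 50.3% of all genes were higher. Of the 100 lower genes, 86, 78, 94, 66, 25 and 94 were also lower, against 47.5% to 50.1% of all genes. For number 5 the median difference in its own pair was -0.17 for genes that were 0.48 higher in the other numbers and 0.14 for genes that were 0.53 lower. For number 6 the medians were 0.33 and -0.57.

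The number of genes called depended on number 5, and also on the weight given to single pools. Without its 3 pools, limma with the replicate block called 372 genes at an adjusted p under 0.05 (2.31% of genes tested), 80 higher (0.497%) and 292 lower (1.81%) in low pools. The opposition of number 5 was known when it was left out. The adjusted p of this fit may therefore not keep its stated error rate. Leaving out number 4 gave 1 call (0.00621%), and leaving out number 1, 2, 3 or 6 gave 0 calls each (0%). These 4 fits had 1103 to 1377 genes at an unadjusted p under 0.05. The fit without number 5 but without the block called 0 genes, with 104 at an unadjusted p under 0.05. The count was 263 (1.63%) without control pool 5 alone and 169 (1.05%) without low pool 5 alone, both with the block. Of the 372 genes, 246 were among the 263, and they included all 169, with the same direction.

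With the deposited scaling, most of the genes called without number 5 were lower at the low dose, and most of these lower genes were abundant. With the same column total more were higher than lower, 42 against 29. The 292 lower genes had a median value of 857 and a median difference of -0.47, a 1.39-fold decrease, and 64 of them were in the top class and 121 in the class from 9 to 11. The 80 higher genes had a median value of 203 and a median difference of 0.49, a 1.40-fold increase, and 39 were in the class from 7 to 9. Of all 16103 genes tested, 5721 were in the class from 7 to 9, 2758 in that from 9 to 11 and 711 in the top class. Within single pairs the SD over genes was 0.56 to 0.71 in the class under 5 and 0.19 to 0.32 in that from 9 to 11. A shift of a given size may thus be called more readily in abundant genes, and the part of this in the counts was not tested. A change of more than 1 was reached by 5 lower and 3 higher genes. The median of the lower genes was -0.58, -0.53, -0.47, -0.16 and -0.59 in numbers 1, 2, 3, 4 and 6, so number 4 had the smallest shift.

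In number 5, whose pools were not in this fit, 213 of the 292 lower genes (72.9%) were higher in the low pool, where 49.0% of all genes were higher. That number 5 opposed the others was known when it was left out. Of the 80 higher genes, 58 (72.5%) were lower in low pool 5, where 48.9% of all genes were lower. The median difference of number 5 was 0.14 in the lower genes, with single genes between -0.69 and 1.58, and -0.15 in the higher genes, with single genes between -0.91 and 0.88. In high pools, which share the control pools, the median difference from control was -0.035 for the lower and -0.025 for the higher genes. These medians join numbers that lay on opposite sides of control. For the lower genes high minus control was -0.20, -0.27, 0.061, 0.17, 0.22 and -0.21 in numbers 1 to 6, and for the higher genes it was 0.081, 0.28, 0.0082, -0.16, -0.48 and 0.087. High pool 5 thus lay on the same side of control pool 5 as low pool 5 did.

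The scaling of the columns changed how many genes were called without number 5, though not the opposition of its pair. Quantile normalization gave 398 calls among the 16103 genes tested, of which 304 were among the 372, with the same direction. Setting the columns to the same total gave 71 calls among the same 16103 genes, 42 higher and 29 lower, of which 69 were among the 372. Of the genes on which the other 5 numbers agreed, number 5 was opposed in 72.2% under quantile normalization and in 83.1% with the same total. The highest share of any other number was 50.7% and 49.4%. The total rose only in number 5, so setting the same total lowers the differences of its genes and raises those of the other pairs. The 83.1% is therefore partly set by the totals. The r of number 5 with the mean of the other 5 was -0.187 with the same total and -0.190 with the deposited scaling.

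The 3 pools of number 5 were not equally far apart, and neither were those of number 3. The root mean square difference over genes was 0.40 between its control and low pool, 0.54 between control and high, and 0.54 between low and high. In number 3 the same distances were 0.42, 0.52 and 0.61, a wider range. The control and low pools of the other numbers were 0.32 to 0.44 apart. In the share held by the 100 most abundant genes, control pool 5 (35.6%) lay near control pools 3 and 4 (35.8% and 34.9%), while low pool 5 (39.7%) lay near high pool 5 (40.3%) and above low pools 3 and 4 (31.4% and 34.2%). Low pool 5 matched its own control better than any other control pool, with a correlation of 0.75 after removal of the group means, against at most 0.74 between control and low pools of different numbers anywhere in the set.

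Individual genes show both kinds of behaviour. They were chosen for the size of the smallest of their 6 pair differences among genes with a mean value of at least 50, so their direction is set by the choice. ENSGACG00000004638 had normalised read counts of 69, 235, 73, 143, 99 and 73 in control pools 1 to 6 and of 104, 323, 92, 184, 147 and 97 in low pools. The low pool was the higher one in 6 of 6 pairs, by at least 0.33, but the groups overlap widely, also when number 2 is set aside. Numbers 2 and 4 were the highest in both groups. The means were 115 ± 64.9 and 158 ± 88.3 (SD, n = 6), and the log2 difference was 0.45 ± 0.43 (SE) in limma without the block and 0.45 ± 0.14 with it (adjusted p = 0.99995 and 0.235). High pools had a mean of 108 ± 88.0.

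ENSGACG00000016699 was lower in 6 of 6 pairs. It had 108, 149, 164, 94, 144 and 74 in control pools 1 to 6 and 61, 68, 111, 75, 105 and 55 in low pools. Number 2 was near the top of the control pools and in the middle of the low pools, and the groups overlap between 74 and 111. The means were 122 ± 35.4 and 79.2 ± 23.4 (SD, n = 6), with a log2 difference of -0.61 ± 0.25 (SE) without the block and -0.61 ± 0.11 with it (limma, adjusted p = 0.99995 and 0.0728). Without number 5 its adjusted p with the block was 0.0169 in limma. The gene was chosen for the agreement and size of its pair differences, so these p-values are not a test of it. High pools had a mean of 89.0 ± 25.3.

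**Figure D5:**
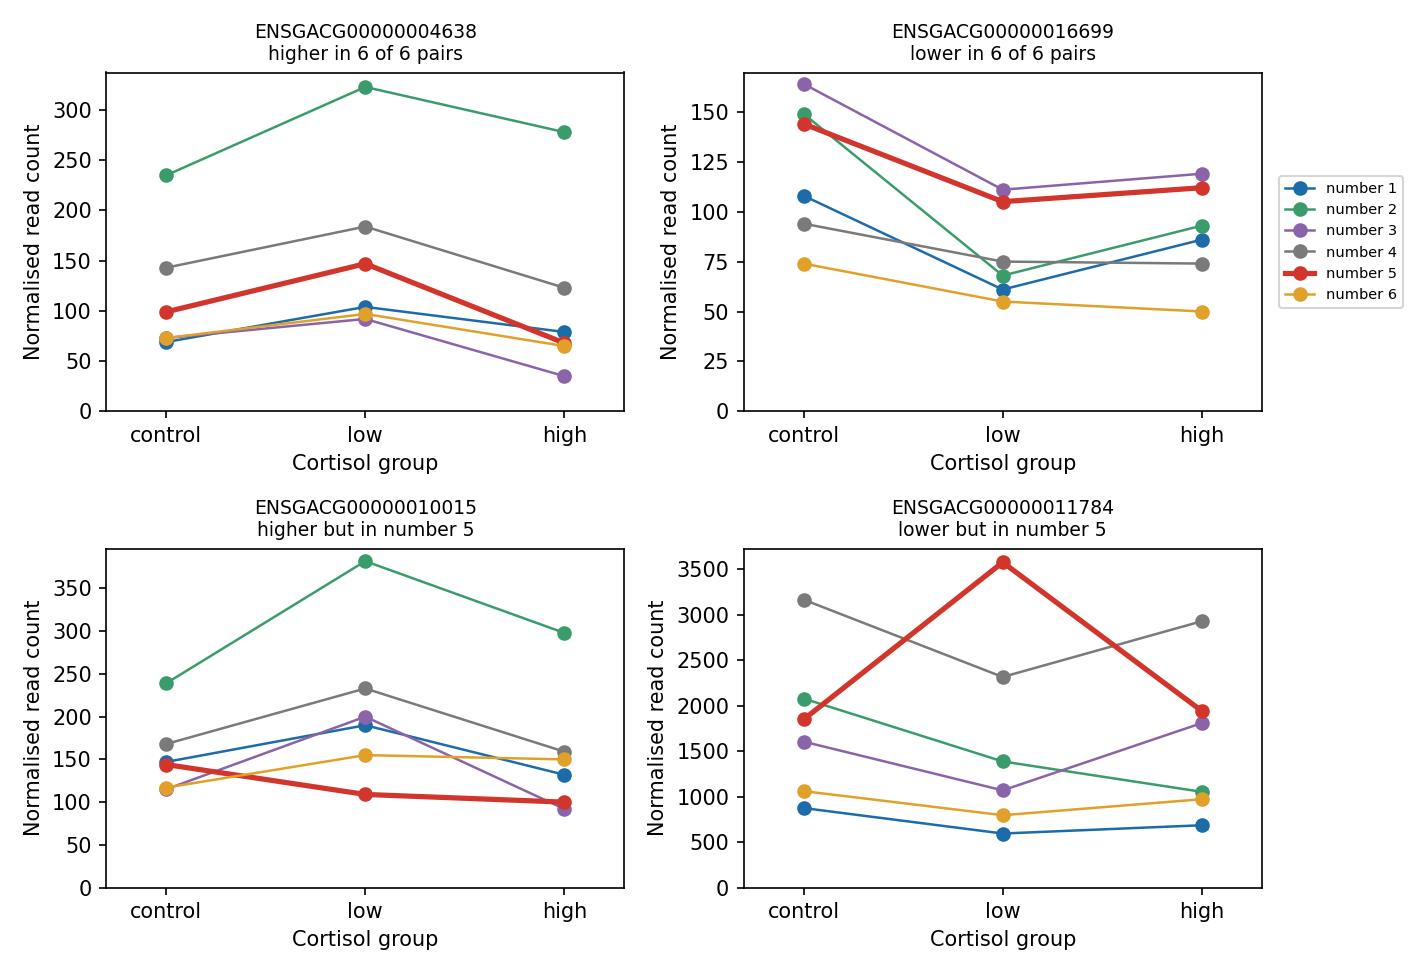
Normalised read count (vertical axis, from 0) of 4 genes in every control, low and high pool, with lines joining pools of the same number and number 5 drawn thick. In the upper panels number 5 moves from control to low as the other numbers do; in the lower panels it moves the other way, from 144 to 109 and from 1847 to 3574.

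ENSGACG00000010015 was higher in the low pool of 5 numbers and lower in number 5. Its counts were 147, 239, 115, 168, 144 and 117 in control pools 1 to 6 and 190, 382, 200, 233, 109 and 155 in low pools. Low pool 5 was the lowest of the low pools, while control pool 5 lay in the middle of the control pools. The high pool of number 5 stood at 100, near its low pool. The log2 difference over 6 numbers was 0.38 ± 0.14 (SE) with the block (limma, adjusted p = 0.293), and 0.54 ± 0.12 without number 5 (adjusted p = 0.031). The gene was chosen for the agreement of the other 5 numbers, so the latter p is not a test of it.

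ENSGACG00000011784 was lower in the low pool of 5 numbers and higher in number 5. Control pools 1 to 6 had 874, 2077, 1604, 3164, 1847 and 1060, and low pools had 594, 1386, 1068, 2314, 3574 and 795. Low pool 5 exceeded every other low and control pool, and the high pool of number 5 stood at 1940, near its control pool. The log2 difference was -0.27 ± 0.17 (SE) over 6 numbers with the block (limma, adjusted p = 0.589) and -0.52 ± 0.12 without number 5 (adjusted p = 0.0386). Here too the choice rested on the agreement of the other 5 numbers, so the latter p is not a test of the gene.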

How the data were processed

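RNA of 18 egg pools was sequenced, and 12 of them, 6 low and 6 control, are compared here. The 6 high pools enter the limma fits, apart from those of 12 pools only. The authors deposited 1 table of scores, that is normalised counts scaled per column and rounded to whole numbers. The submitters' processing notes name edgeR, HTSeq, Cuffdiff, Cufflinks 2.2.0, Bowtie2 2.1.0, TopHat2 2.0.8 and FastQC, without their steps. The genome build is not given in the sources used here.

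Genes were kept when their mean reached 11.4, set from the mean column total, and log2(value + 1) was fitted over 18 pools with a variance trend (limma 3.58.1, R 4.3.3), with Benjamini-Hochberg adjustment over the 16103 genes. Single values per pool were compared by two-sided exact sign-flip tests over 6 pairs (Python 3.11.15, SciPy 1.17.1), whose smallest p is 0.031. Plots used matplotlib 3.10.9. Depth was estimated by finding the factor that explains the whole numbers a column skips or doubles. A factor was clear in 17 of 18 columns, low pool 2 being the exception. Low pool 4 and high pool 2 had the same factor as low pool 2 (1.0015) and were only narrowly clear. Their log-likelihood margins over other factors were 50.9 and 46.4, against 23.9 in low pool 2 and at least 167 in the remaining columns. At least 98.2% of the low values could be reached with the factor. A factor up to about 1 skips no low whole number, so this share checks only the larger factors. The reads themselves were not recovered.

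Numbers pair the pools by the data, not by the labels: after removal of group means, control and low pools of the same number correlated at 0.70 to 0.89, above the threshold of 0.1, and 12 of 12 pools matched their own number best. Different numbers reached 0.74.

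Identifiers were named by the largest smallest absolute pair difference, 1 per direction for 6 agreeing pairs and 1 per direction with number 5 opposed. The comparison, its interest in number 5, the classes and this rule were chosen with earlier results of these data known. Gene lists by symbol could not be applied.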

Additional observations from a re-analysis of the deposited data

Results flagged for a closer look

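Dixon's ratio was computed for 31 sets of 6 values, and 4 sets held a value past its 95% limit, against about 1.55 by chance. The sets are not independent and include genes chosen for their pair differences, so the 1.55 is only a rough guide. Number 5 was of interest beforehand, so its flag is not separate support. For the top minus the bottom abundance class, number 5 was at 0.155 and the other numbers between -0.281 and -0.125. Genes with a value no higher than 5 numbered 738 in control pool 3 and 418 to 530 in the other control pools. High pool 2 stood at 278 for ENSGACG00000004638, with 35 to 123 in the other high pools, and at 298 for ENSGACG00000010015, with 92 to 159 in the others.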

How the results depend on the processing

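No gene was called under any of the alternatives run without the replicate block: other pseudocounts, filters and scalings, 12 pools only, no variance trend, an adjusted p under 0.10, and leaving out single pools or numbers. In the main fit without the block the median SE of a gene was 0.26, above the difference of most genes. These 0 calls therefore do not show that no gene changed. With the replicate block the count of 0 of 16103 genes became 15 at an adjusted p under 0.10 and 1067 with sample weights. It was 5, 263 and 169 without control pool 4, control pool 5 and low pool 5, and 1 and 372 without numbers 4 and 5. Without number 4 under quantile normalization it was 17. Without number 5 it was 398 under quantile normalization and 71 with the same column total, both chosen after seeing the data. With the deposited scaling, leaving out single pools or numbers under the block thus gave 0 to 372 calls. The blocked fits with other pseudocounts, filters or scalings, 12 pools only or no variance trend, on all 6 numbers, gave 0. The cause was not tested. The fold changes of the 4 genes described singly kept their sign in 120 of 120 alternatives and passed the test in 6, 3 with sample weights and 3 without number 5. These genes were chosen for the direction and size of their pair differences, so neither the kept sign nor the passes are separate support. Some alternatives, such as 12 pools only and no variance trend, leave the fold change as it was.

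The median over all genes was 0.065 with the same column total, -0.0066 with a mean of at least 50 and -0.00080 to 0.00088 without single numbers. The class from 7 to 9 was at 0.067 with the same column total, -0.0027 without pairing (no replicate block) and -0.0025 to 0.0051 without single numbers. The class from 9 to 11 reversed to 0.039 with the same column total and 0.0085 under quantile normalization, which also took the class at 11 and over to 0.0056 (-0.011 with the same column total). The classes under 5 and from 5 to 7 were at 0.14 and 0.097 with the same column total and at 0.0083 and 0.0042 under quantile normalization. Quantile normalization makes the columns' distributions equal, and the top minus the bottom class was then -0.0027. Without pairing it was -0.10 (exact permutation test of 6 against 6 pools, p = 0.628). The difference in estimated reads was 0.893 to 1.26 M without single numbers, where 5 pairs cannot give a p under 0.0625. Genes opposed in number 5 were 3413 with the same column total, a count partly set by the totals themselves. The r of number 5 in the class from 9 to 11 was -0.41. The class under 5 was not recomputed with a mean of at least 50, which left fewer than 20 genes in it.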
